A study of Mus musculus with 8 samples.

Results

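The RIKEN 1700-series clone genes are mouse genes whose symbol still is the number of a full-length cDNA clone that starts with 1700. The members were chosen by their symbol in the platform annotation and by their mean level over all 8 arrays. A gene was taken when its probe set, named with a single symbol, had a mean log2 value above the 40th percentile of all probe sets, which is an intensity of about 63.1. Of 200 such genes on the array, 156 passed, among 13787 genes with a single symbol that passed. Just inside the limit lay 1700054O19Rik and 1700054K19Rik, with mean log2 values of 6.35 and 6.34. Just outside lay 1700122O11Rik and 1700016P04Rik, both at 6.26. The levels chose the members and are given below as a description. The genotype of the mice played no part in the rule.

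Whole testis was taken from 8 mice at an age of 27 days, and the RNA of each mouse was measured on 1 Affymetrix array. Mutant testes carried the genotype entry MT:Brwd1-/- and came from 4 mice. The control testes came from 4 mice whose titles call them wild type. Their genotype entry instead gives Brwd1+/-, so the labels do not settle whether they carried a mutant copy. The sources used here give neither the strain, nor the kind of mutation, nor any treatment. The arrays of a genotype are numbered as replicates 1 to 4, and nothing in the labels says that equal numbers share a litter or a day.

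The clone prefix marks a cDNA library of adult mouse testis, so these genes were first collected because the testis transcribes them. Many are known from sequence alone: some encode small proteins of the sperm tail, acrosome or membranes, and others are long non-coding RNAs (lncRNAs), transcripts without a recognised protein. In the testis, spermatogonia divide and enter meiosis as spermatocytes. Meiosis yields round spermatids, which transcribe a large set of genes found in no other cell and later stop transcription as their chromatin is compacted into the sperm head. Brwd1 encodes a bromodomain protein that binds acetylated histones and is present in spermatids. In a bulk sample of this kind, fewer cells of a type and less RNA per cell cannot be told apart.

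Of the 156 genes, 149 were matched in the RefSeq gene table, which lists 71 as protein-coding, 70 as lncRNAs, 7 as pseudogenes of several kinds and 1 as another RNA. They lay on all autosomes and the X chromosome. Each kept its clone symbol in that table, and a given name was found only among synonyms. The brightest, 1700010I14Rik, had 10596, 16064, 14762 and 13604 units in the mutant mice 1 to 4, against 13261, 15301, 13451 and 9944 units in the wild-type mice 1 to 4. The dimmest members lay near the limit, where the arrays give no detection call.

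Some arrays stood apart. Array medians ranged between 90.7 and 124 units. Replicates 3 and 4 of both genotypes differed from replicates 1 and 2 in 5857 genes (42.5% of those tested), and 9 epididymis markers had a summed level of 61222 to 72821 units in replicates 3 and 4, against 288 to 706 units in replicates 1 and 2. Within the mutants, replicate 1 had the lowest of the 4 mutant values in 80 of the 156 genes (51.3%), against 20.4% of all genes. Of 5 Brwd1 probe sets 4 passed the filter, with differences of -0.28 to 0.31, and limma called none of them without a block (lowest adjusted p = 0.918). The one with the highest mean log2 value had 413, 436, 324 and 287 units in mutants and 304, 222, 306 and 329 units in wild types. It differed by 0.31, and the others by -0.04, -0.28 and -0.20. Since the altered part of the gene is not described, these probe sets may lie outside it and check no label.

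The 1700-series genes were on balance lower in mutant testes. The median difference over the 156 genes was -0.44 on the log2 scale, beside 0.06 over all genes tested, and -0.36 without mutant 1. Of the 156, 120 were below and 36 above 0, and the quartiles were -1.20 and -0.05, while those of all genes were -0.08 and 0.18. A log2 difference below -1 was seen in 50 genes (32.1%, against 4.15% of all genes) and one above 1 in 0 (against 0.116%). In 49 genes (31.4%, against 5.26% of all genes) every mutant was lower than every wild type. In 1 gene (1700110I01Rik) every mutant was higher, where the share of all genes is 2.53%. Folds are on the scale of log2(intensity + 16), which understates changes of dim genes.

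Genotypes were compared with limma over all 13787 genes, and a gene was called at a Benjamini-Hochberg adjusted p under 0.05. Without a term for the replicate number, 4 of the 156 genes fell (2.56%), where 0.268% of all genes fell. None of the 156 rose by this test, where 0.0145% of all genes rose. At an unadjusted p under 0.05, 62 were lower (6.96% of all genes were) and 1 was higher (2.6% of all genes were). Mice with the same number deviated together from their genotype means (r = 0.515 to 0.677), so the fit with the number as a block is given beside it. With that block 34 genes fell (21.8%, against 3.12% of all genes) and 1 rose (against 0.326%). With only replicates 1 and 2 set against 3 and 4 as a block, 19 fell (12.2%, against 2.16%), all of them among the 34, and the same gene rose (against 0.471%). The 4 were called by all 3 fits. Of the 34, 2 passed the filter only through their wild-type mean, so a difference was built into their passing. They are 1700009J07Rik, which is also among the 4, and 1700008P02Rik.

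These counts rested on single mice, and the calls over all genes moved with them. Without the block, 17 of the 156 genes fell when mutant 1 was left out (1.31% of all genes did) and 1 when mutant 4 was left out (1700009J07Rik, where 0.145% of all genes fell). With mutant 3 or wild type 1, 2 or 3 left out, 0 of the 156 and 0% of all genes fell. With the block, leaving out both mice of number 1 gave 42 genes that fell (3.5% of all genes) and leaving out those of number 4 gave 50 (4.74%). Leaving out number 3 left 1700063H04Rik as the 1 gene called among all those tested (0.00725%), and leaving out number 2 left 0 (0%). The median over the series stayed negative in every alternative, between -0.57 and -0.30. Those without a filter hold 200 genes, and the one with a stricter filter holds 118.

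The 4 genes called in all 3 fits are shown with the 300 bases around their annotated start, to let a reader see what sequences lie there. The windows hold 250 bases before the start and 50 after it, are credited to RefSeq on build GRCm38.p6, and read 5′ to 3′ on the strand of the gene. They lie at chr10:77893170-77893469 for 1700009J07Rik, chr6:32050038-32050337 for 1700012A03Rik, chr4:116173122-116173421 for 1700042G07Rik and chr6:122391129-122391428 for 1700063H04Rik, all on the plus strand. The fifth window, at chr5:103655683-103655982 on the minus strand, belongs to 1700016H13Rik, which had the largest fall of the 8 genes with the short element described next, and was chosen after its values were seen. Capitals mark the motifs that were found.
1700009J07Rik: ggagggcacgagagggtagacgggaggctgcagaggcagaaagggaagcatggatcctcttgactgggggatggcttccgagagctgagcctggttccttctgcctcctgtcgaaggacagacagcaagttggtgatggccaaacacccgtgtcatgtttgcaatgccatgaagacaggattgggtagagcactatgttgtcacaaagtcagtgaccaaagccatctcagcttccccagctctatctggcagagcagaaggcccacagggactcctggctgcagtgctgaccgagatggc
1700012A03Rik: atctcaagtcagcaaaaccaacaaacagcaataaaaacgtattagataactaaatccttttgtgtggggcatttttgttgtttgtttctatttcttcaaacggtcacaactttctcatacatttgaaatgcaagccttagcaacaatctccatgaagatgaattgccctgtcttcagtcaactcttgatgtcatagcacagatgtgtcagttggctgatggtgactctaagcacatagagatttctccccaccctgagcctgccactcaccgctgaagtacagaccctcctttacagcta
1700042G07Rik: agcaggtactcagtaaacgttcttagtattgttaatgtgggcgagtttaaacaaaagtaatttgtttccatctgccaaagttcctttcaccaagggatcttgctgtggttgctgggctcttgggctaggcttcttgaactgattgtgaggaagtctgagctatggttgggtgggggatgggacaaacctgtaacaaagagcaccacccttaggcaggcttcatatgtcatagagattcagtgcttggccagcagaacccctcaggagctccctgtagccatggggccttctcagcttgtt
1700063H04Rik: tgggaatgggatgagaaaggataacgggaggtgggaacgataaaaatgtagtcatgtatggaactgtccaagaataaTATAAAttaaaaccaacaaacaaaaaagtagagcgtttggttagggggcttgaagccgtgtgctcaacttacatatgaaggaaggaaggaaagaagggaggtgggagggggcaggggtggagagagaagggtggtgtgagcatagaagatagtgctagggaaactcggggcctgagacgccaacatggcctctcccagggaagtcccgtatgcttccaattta
1700016H13Rik: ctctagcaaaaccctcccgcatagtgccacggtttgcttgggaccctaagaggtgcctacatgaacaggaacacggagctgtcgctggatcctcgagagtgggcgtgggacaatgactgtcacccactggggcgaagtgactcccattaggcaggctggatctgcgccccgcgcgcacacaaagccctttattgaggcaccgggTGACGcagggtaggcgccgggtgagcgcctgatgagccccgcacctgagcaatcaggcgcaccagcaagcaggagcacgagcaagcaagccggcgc

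Motifs were searched on both strands of every such window in the promoter table. The first was the cAMP response element, TGACGTCA, which the spermatid activator CREM binds, and the second the shorter TGACG, which lies within the full one. The third was the TATA box, TATAAA. Windows were found for 116 of the 156 genes, and for 25 of the 34 that fell with the block. The full element was present in 0 of the 25 genes, in 1 of all 116 (0.862%) and in 2.03% of the 27025 genes of the table. The short element was present in 8 of the 25 (32.0%), in 22 of 90 genes that were not called (24.4%) and in 23.0% of all genes. Some genes had several windows, with 37 windows for the 25 genes and 95 for the 90. Counted by window, the short element was present in 24.3% of the 37, in 23.2% of the 95 and in 20.8% of all windows. The TATA box was present in 1 of the 25 (4.0%), which is 1700063H04Rik, in 11 of the 90 (12.2%) and in 15.7% of all genes. The first 3 windows printed hold none of these letters, and the last holds 1 short element. A match describes the letters of a window and no more.

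1700009J07Rik, a lncRNA on chromosome 10, had the lowest difference of the 156. It had 33.9, 93.4, 43.2 and 98.7 units in mutant mice 1 to 4, against 630, 977, 765 and 454 units in wild-type mice 1 to 4. The genotypes did not overlap, and the highest mutant lay far below the lowest wild type. The means were 67.3 ± 33.5 units in mutants and 706 ± 221 units in wild types (SD, n = 4 each), a difference of -3.16 ± 0.34 on the log2 scale (SE), or 8.92-fold lower. The limma adjusted p was 0.0229 in the fit without any block. It was 0.00823 with the replicate block, and 0.00755 where the pairs of replicates were the block. Without mutant 1 the difference was -2.94. This gene passed the filter only through its wild-type mean, so a difference was built into its passing.

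1700012A03Rik, a protein-coding gene on chromosome 6, had 27.4, 137, 70.9 and 69.4 units in mutants, against 811, 1217, 671 and 397 units in wild types. All 4 mutants were below all wild types, and mutant 1 was the lowest. The difference was -3.13 ± 0.42 (limma adjusted p = 0.0316, and 0.00823 with the block), and -2.82 without mutant 1.

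1700042G07Rik is a protein-coding gene on chromosome 4 with the synonym P3r3urf. It had 92.5, 337, 172 and 253 units in mutants, against 1463, 2446, 1665 and 880 units in wild types. The groups did not overlap, and mutant 1 again was lowest among mutants as wild type 4 was among wild types. The difference was -2.87 ± 0.41 (limma adjusted p = 0.0356, and 0.00921 with the block), and -2.55 without mutant 1.

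1700063H04Rik, a lncRNA on chromosome 6, was the exception to that order. It had 113, 104, 46.1 and 49.3 units in mutants, against 747, 666, 266 and 460 units in wild types. Here mutants 1 and 2 were the highest of the mutants, and wild types 1 and 2 the highest of the wild types. The difference was -2.53 ± 0.37 (limma adjusted p = 0.0393, and 0.00543 with the block, the lowest of the 34). It was -2.71 without mutant 1, and nearly the same in both pairs of replicates, at -2.54 in numbers 1 and 2 and -2.52 in numbers 3 and 4.

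**Figure D1:**
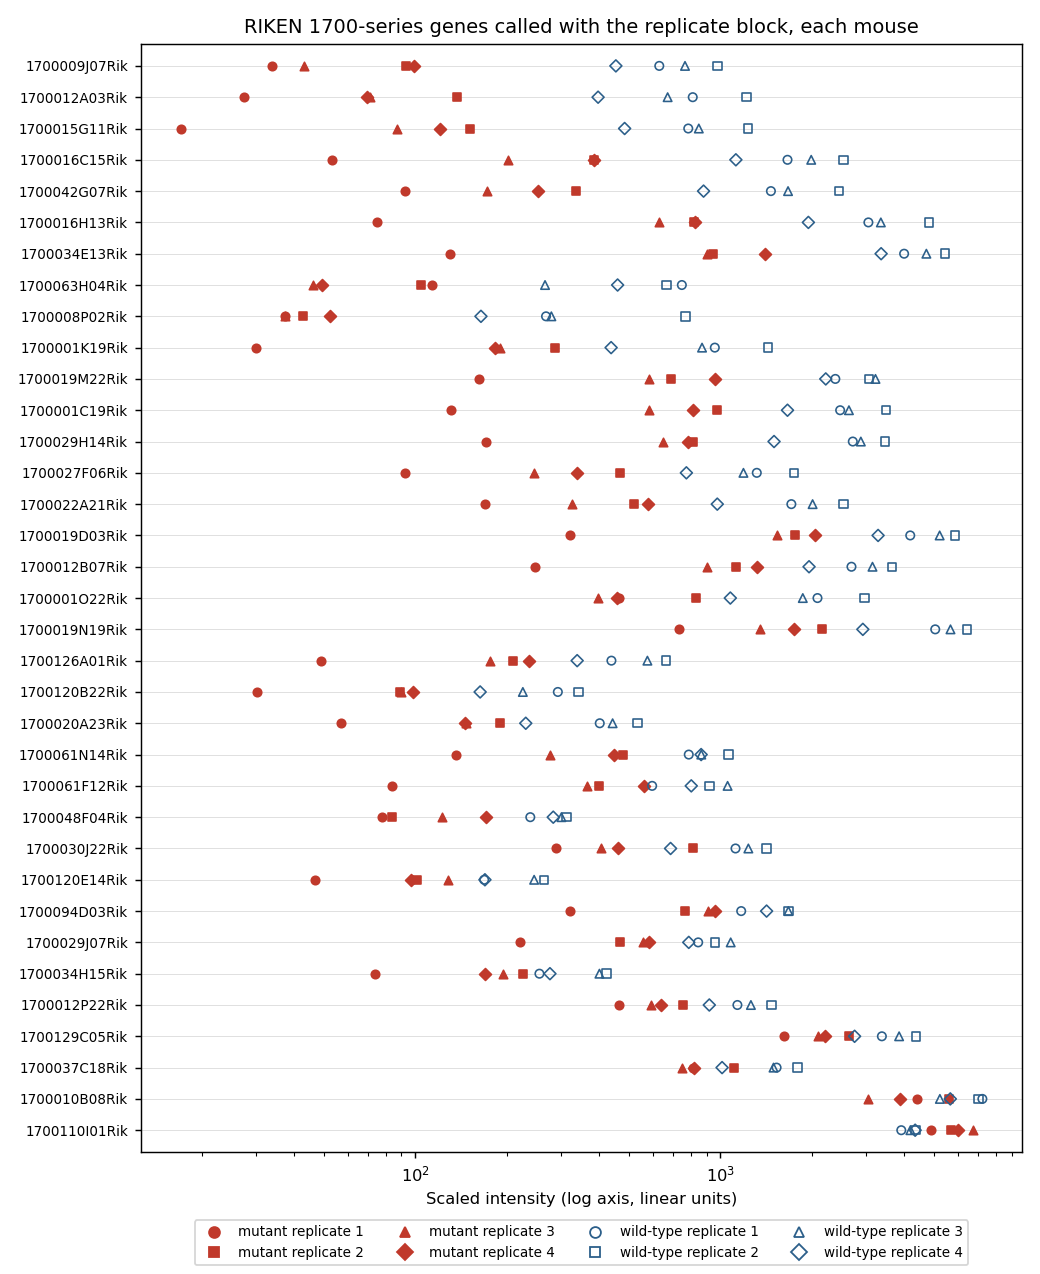
Scaled intensity on a log axis of the 35 genes called with the replicate block, 1 row per gene ordered by difference, 1 point per mouse with mutants filled and wild types open, and symbols for replicates 1 to 4. In 31 of the 34 genes that fell no mutant reaches a wild type, mutant replicate 1 is the leftmost point in 29, and the bottom row is the gene that rose.

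Most of the genes that fell with the block encode proteins or are annotated to do so. 1700015G11Rik, with the synonym Ccdc179 for a coiled-coil protein, had 17, 151, 87.2 and 120 units in mutants, against 784, 1233, 849 and 485 units in wild types. The groups did not overlap, and the difference was -3.11 ± 0.37 with the replicate block (limma adjusted p = 0.0139, and 0.0514 without the block), and -2.61 without mutant 1. 1700016C15Rik had 53.2, 385, 201 and 385 units in mutants, against 1658, 2526, 1983 and 1123 units in wild types. It was 7.96-fold lower (limma adjusted p = 0.0196 with the block and 0.0655 without), at -2.99 on the log2 scale and -2.43 without mutant 1.

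1700016H13Rik and 1700034E13Rik both had mutant 1 far below the other mutants. 1700016H13Rik had 74.7, 821, 629 and 824 units in mutants, against 3053, 4832, 3354 and 1941 units in wild types. Its difference was -2.81 ± 0.52 with the block (limma adjusted p = 0.0328, 0.125 without the block and 0.0625 with the pairs of replicates as a block), and -2.03 without mutant 1. 1700034E13Rik, on chromosome 18, had 130, 944, 903 and 1404 units in mutants, against 3998, 5448, 4729 and 3361 units in wild types. It was 6.62-fold lower (limma adjusted p = 0.0275 with the block and 0.106 without), and its log2 difference was -2.01 without mutant 1. In both genes the 3 other mutants still lay below every wild type.

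In 1700008P02Rik the mutants lay close together. It had 37.5, 42.9, 37.5 and 52.6 units in mutants, against 268, 769, 279 and 164 units in wild types, with wild type 2 far above the others. It was 5.65-fold lower (limma adjusted p = 0.0177 with the block and 0.0512 without), passed the filter only through its wild-type mean, and hardly moved without mutant 1 (-2.46, against -2.50 with it). 1700001K19Rik had 30.1, 286, 190 and 182 units in mutants, against 958, 1434, 870 and 438 units in wild types, and was 5.63-fold lower (limma adjusted p = 0.0281 with the block and 0.11 without). Its log2 difference was -2.49, and -1.91 without mutant 1. With the pairs of replicates as a block 1700001K19Rik was not called (limma adjusted p = 0.0575).

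A further pair of genes had a second probe set that moved less. 1700001C19Rik, on chromosome 17, had 131, 971, 581 and 813 units in mutants, against 2467, 3490, 2636 and 1658 units in wild types. It was 4.82-fold lower by its brightest probe set (limma adjusted p = 0.0328 with the block and 0.127 without), while its other probe set differed by -0.43 and was not called. 1700019D03Rik, with the synonym smAKAP, encodes a small membrane anchor for protein kinase A. It had 320, 1759, 1537 and 2038 units in mutants, against 4187, 5872, 5228 and 3285 units in wild types. Mutant 1 lay far below the other mutants, which lay below every wild type. The fall was 3.87-fold (limma adjusted p = 0.0439 with the block and 0.165 without), and the other probe set differed by -0.25. Without mutant 1 the log2 difference was -1.66 for 1700001C19Rik and -1.35 for 1700019D03Rik, against -2.27 and -1.95 with it. With the pairs of replicates as a block neither gene was called (limma adjusted p = 0.0651 for 1700001C19Rik and 0.0794 for 1700019D03Rik).

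Genes that are not annotated as protein-coding took part as well. 1700019M22Rik, a pseudogene on chromosome 12, had 162, 690, 584 and 962 units in mutants, against 2379, 3071, 3221 and 2213 units in wild types, and was 5.18-fold lower (limma adjusted p = 0.0214 with the block and 0.0771 without). The other 3 genes outside the coding and lncRNA classes were 1700022A21Rik, a transcribed pseudogene at -2.19, and 1700126A01Rik and 1700061N14Rik, which the gene table does not hold, at -1.63 and -1.51. Their limma adjusted p with the replicate block was 0.0224, 0.0396 and 0.0221, and without a block it was 0.0718, 0.144 and 0.109. With the pairs of replicates as a block it was 0.0334, 0.0734 and 0.052, so 1700126A01Rik and 1700061N14Rik were then not called. Without mutant 1 the log2 difference of 1700019M22Rik was -1.86, against -2.37 with it. Among lncRNAs 1700027F06Rik had 92.3, 468, 244 and 339 units in mutants, against 1315, 1740, 1189 and 773 units in wild types (limma adjusted p = 0.0221 with the block and 0.0821 without). 1700048F04Rik, chosen after its values were seen, had 78.0, 83.7, 122 and 170 units in mutants, against 238, 313, 301 and 283 units in wild types. In it the wild types lay close together, and it was 2.4-fold lower (limma adjusted p = 0.0221 with the block and 0.0719 without).

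Across the 34 genes the fall ran between 1.5-fold and 8.92-fold, with 15 genes at 4-fold or more, 15 between 2-fold and 4-fold and 4 below 2-fold. Their limma adjusted p with the block lay between 0.00543 and 0.0467. The 4 smallest falls were all in protein-coding genes. The smallest, in 1700010B08Rik, had 4394, 5625, 3049 and 3873 units in mutants, against 7216, 7002, 5237 and 5665 units in wild types, and the groups overlapped. The other 2 of the 34 with overlap were 1700030J22Rik and 1700037C18Rik. The 34 genes lay on 16 chromosomes. Of 5 genes on the X chromosome 0 fell, with differences of -0.27 to 0.20. Of 5 on chromosome 16 there was 1, 1700037C18Rik.

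The order of mice was much alike from gene to gene. Mutant 1 was the lowest mutant in 29 of the 34 genes and mutant 3 in the other 5. Wild type 2 was the highest wild type in 29 and wild type 4 the lowest in 26. Without mutant 1 the median difference of the 34 was -1.42, against -1.84 with it, and 32 of the 34 were nearer to 0. With the pairs of replicates as a block and mutant 1 left out, 44 genes fell (4.01% of all genes did) and 32 of the 34 were among them. The median standard error over the 34 was 0.288 with the replicate block and 0.385 without it.

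Both pairs of replicates gave the same sign in all 34 genes. Within replicates 1 and 2 their median was -2.39, and within replicates 3 and 4 it was -1.33. The fall was larger in the first of these pairs in 33 genes. Both values of a gene entered the fit that called it, so they describe the fall and are not a second test of it. Over all 156 genes 110 were negative in both pairs (70.5%, against 21.7% of all genes), with medians of -0.57 and -0.32. Within replicates 3 and 4 alone, which leave mutant 1 out, 5 genes fell (0.189% of all genes did), and they were 1700009J07Rik, 1700012A03Rik, 1700015G11Rik, 1700042G07Rik and 1700063H04Rik. Within replicates 1 and 2 alone limma called 0 of the 156 and 0% of all genes, with 68 at an unadjusted p under 0.05 (12.8% of all genes). The difference between pairs itself passed the adjusted limma test in 0 of the 156 genes (0% of all genes), with a lowest adjusted p of 0.738. At an unadjusted p under 0.05 there were 6 such genes, where all genes gave 5.35%.

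**Figure D2:**
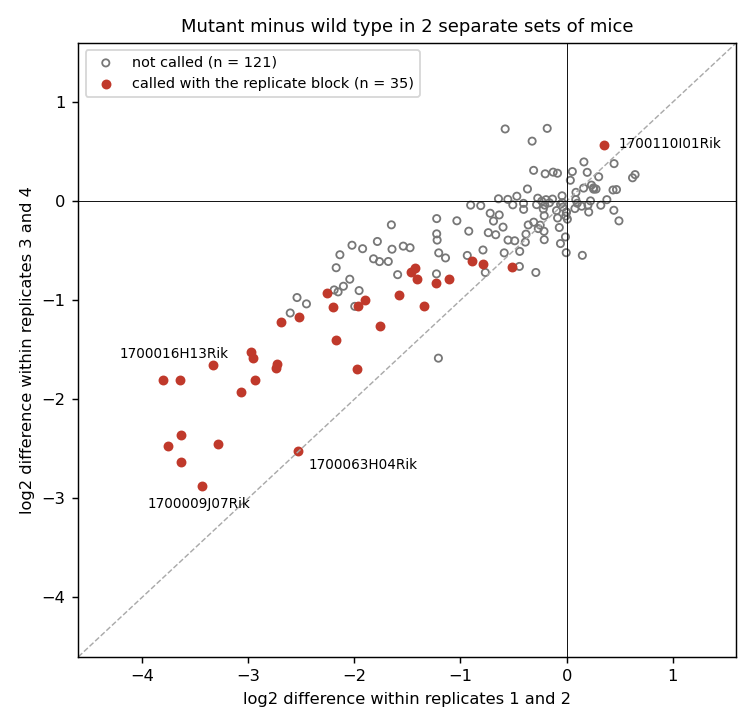
Log2 difference, mutant minus wild type, within replicates 1 and 2 (x axis) and within replicates 3 and 4 (y axis) for the 156 genes, filled where called with the replicate block and open where not, with a dashed line of equal difference. The 34 genes that fell are all at the lower left, 33 of them above the dashed line, 1700063H04Rik only just.

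A further 20 genes were lower by more than 1 log2 unit but were not called with the block (limma adjusted p = 0.0516 to 0.307). Mutant 1 was the lowest mutant in 19 of them. Their median was -1.41 when mutant 1 was included and -0.87 without it, and 12 of the 20 fell when it was left out and the pairs of replicates were the block. The largest was 1700013G24Rik, with 259, 2082, 1276 and 1877 units in mutants, against 3996, 5292, 4569 and 2534 units in wild types (limma adjusted p = 0.0819 with the block). Its genotypes did not overlap. 1700017L05Rik was the 1 gene of the 20 with a larger difference within replicates 3 and 4 than within 1 and 2, at -1.58 and -1.21. Its lowest mutant was replicate 4, with 12.8 units. This gene, 1700031F10Rik and 1700003P14Rik, all among the 20, passed the filter only through their wild-type mean. A difference was thus built into their passing.

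By annotated class, the protein-coding genes of the series had a lower median than its lncRNAs. The median was -0.74 over the 71 coding genes, beside 0.07 over the 13060 coding genes tested, and 63 of the 71 were below 0. With the replicate block 22 of the 71 fell (31.0%, against 2.9% of coding genes), and with the pairs of replicates as a block 12 did (16.9%, against 2%). The median over the 70 lncRNAs was -0.21, beside -0.04 over the 564 lncRNA genes tested, and 45 of the 70 were below 0. Of the lncRNAs 8 fell with the replicate block (11.4%, against 7.09% of lncRNA genes) and 5 with the pairs (7.14%, against 5.5%). Their share was thus somewhat above that of all lncRNA genes, which include these 70, and this was not tested. Without mutant 1 the medians were -0.55 for coding genes and -0.21 for lncRNAs. Within replicates 1 and 2 they were -0.92 and -0.28, and within replicates 3 and 4 they were -0.52 and -0.17. The difference between the classes was not tested.

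**Figure D3:**
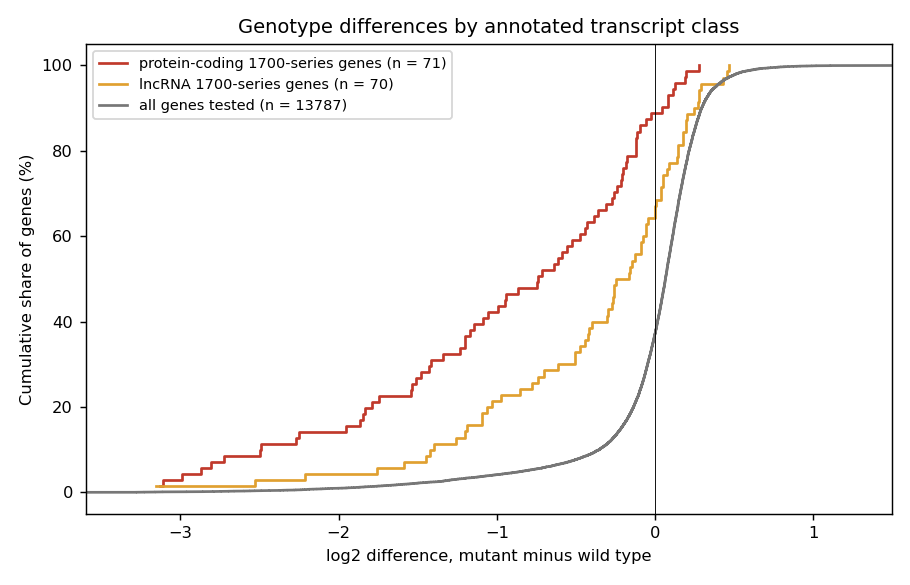
Cumulative share of genes in percent (y axis) by log2 difference, mutant minus wild type (x axis), for 71 protein-coding and 70 lncRNA genes of the series and for all 13787 genes tested. The coding curve lies left of the lncRNA curve over most of its range, with medians of -0.74 and -0.21, and both lie left of the curve of all genes below 0.

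A single gene of the series rose. 1700110I01Rik, a lncRNA on chromosome 14, had 4894, 5708, 6723 and 6002 units in mutants, against 3913, 4354, 4192 and 4345 units in wild types. All 4 mutants lay above all wild types, and the wild types lay close together. The means were 5832 ± 757 units in mutants and 4201 ± 206 units in wild types (SD, n = 4 each), a 1.38-fold difference. The limma adjusted p was 0.036 with the replicate block, 0.0374 with the pairs as a block and 0.142 with neither. Without mutant 1 the log2 difference was 0.55, against 0.46 with it. When mutant 1 was left out with the pairs as a block, 1700006J14Rik rose too, a lncRNA with 4230, 5712, 4302 and 4134 units in mutants, against 4362, 4226, 3390 and 3497 units in wild types.

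The 6 genes of the series with the highest mean intensity did not pass the test in either direction. 1700010I14Rik, given above, differed by 0.08 (limma adjusted p = 0.754 with the block). 1700123L14Rik, a transcribed pseudogene with the synonym Nup50 after a nuclear pore protein, differed by -0.09. The array cannot tell how much of its signal comes from its parent gene. 1700018B24Rik differed by -0.05, 1700008K24Rik by -0.15 and 1700028J19Rik by 0.00. 1700097N02Rik had 13192, 12209, 7793 and 7865 units in mutants, against 9029, 7532, 7382 and 5981 units in wild types. Its difference of 0.43 did not pass (limma adjusted p = 0.0748 with the block), and its groups overlapped.

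Of 9 members picked for a given name among their synonyms, which does not always tell a role, 3 fell with the block (33.3%, against 21.8% of the 156). They were 1700042G07Rik, 1700015G11Rik and 1700019D03Rik. The other 6 were not called, and 1 of them is 1700123L14Rik, given above. 1700074P13Rik, with the synonym Tryx5 for a trypsin-like protease, had 4612, 5088, 6764 and 6587 units in mutants, against 7114, 7971, 7834 and 6903 units in wild types. No mutant reached a wild type, but its difference of -0.39 did not pass (limma adjusted p = 0.132 with the block). 1700016K19Rik, with the synonym Liat1 for a partner of the arginyl-transfer enzyme Ate1, differed by -0.36 (limma adjusted p = 0.192). 1700013H16Rik, an X-linked member of a testis gene family with the synonyms Slx2 and Xlr6, differed by -0.12. 1700066B19Rik, with the synonym SMIM33 for a small membrane protein, differed by 0.12, and 1700020D05Rik, with the synonym mage-g2, by -0.03.

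Replicates 3 and 4 differed from replicates 1 and 2 in 44 genes of the series. Of the 156, 36 were lower in replicates 3 and 4 (23.1%, against 20.3% of all genes) and 8 were higher (5.13%, against 22.2%). The share of lower genes thus lay close to that of all genes, and the median was -0.09, beside 0.01 over all genes. Of the 34 genes that fell in mutants, 3 were also lower in replicates 3 and 4 and 0 were higher. The 3 were 1700063H04Rik, 1700001O22Rik and 1700010B08Rik. 1700001O22Rik had 464, 831, 396 and 457 units in mutants, against 2079, 2965, 1861 and 1077 units in wild types, without overlap (limma adjusted p = 0.00878 for genotype with the block and 0.0647 without). 1700063H04Rik averaged 205 units in replicates 3 and 4 and 407 units in replicates 1 and 2, a difference of -0.97 ± 0.17 on the log2 scale (SE; limma adjusted p = 0.0025).

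Some genes differed between the replicate pairs and not by genotype. 1700028J19Rik, among the brightest, had 11289, 12980, 7389 and 7041 units in mutants, against 11380, 11548, 8136 and 7094 units in wild types. It averaged 7415 units in replicates 3 and 4 and 11799 units in replicates 1 and 2, which did not overlap (limma adjusted p = 0.000414). 1700003E16Rik, chosen after its values were seen, had 1858, 3102, 938 and 620 units in mutants, against 2059, 2280, 1362 and 925 units in wild types. It was 2.44-fold lower in replicates 3 and 4 (limma adjusted p = 0.00253), while its genotype difference was -0.20 and not called. 1700028E10Rik, chosen likewise, had 114, 73.9, 256 and 216 units in mutants, against 87.5, 84.1, 231 and 211 units in wild types. It was 2.32-fold higher in replicates 3 and 4 (limma adjusted p = 0.000735), and its genotypes overlapped throughout.

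**Figure D4:**
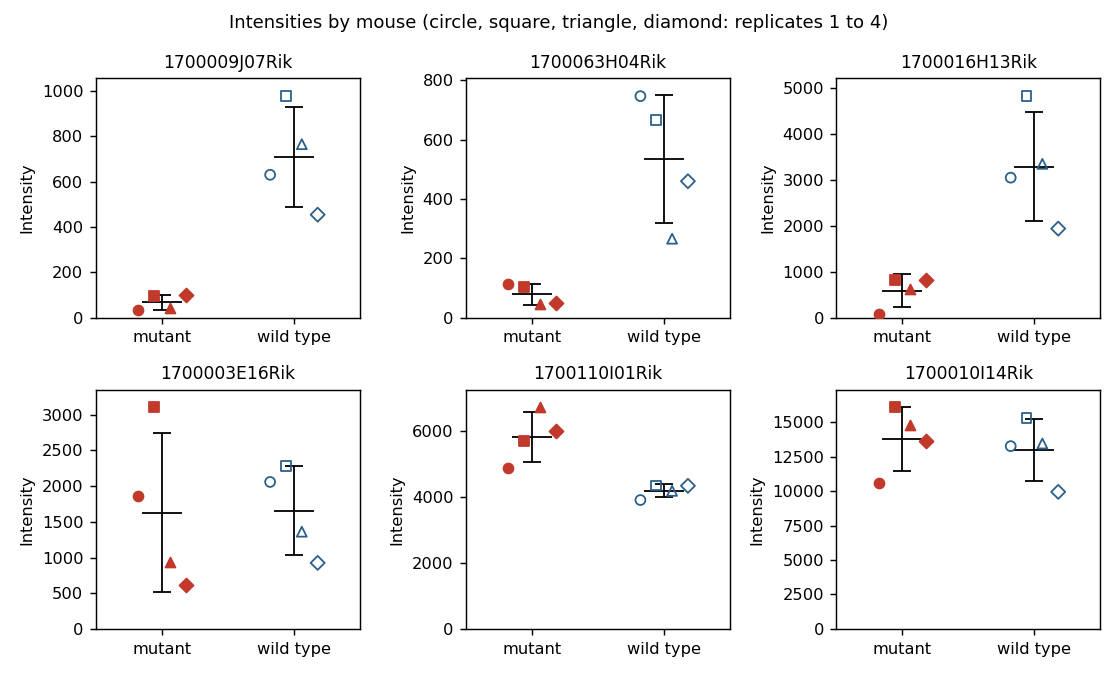
Scaled intensity by mouse for 6 genes of the series, mutants left and wild types right in each panel, with the mean and SD of 4 mice and symbols for replicates 1 to 4. 1700009J07Rik, 1700063H04Rik and 1700016H13Rik are lower in every mutant, 1700003E16Rik separates by replicate pair, 1700110I01Rik is higher in every mutant, and 1700010I14Rik overlaps.

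Marker lists of the testis cell types were measured beside these genes. Over all genes 3.12% fell and 0.326% rose with the replicate block, and 0.268% fell without it. Of 15 genes of elongating and late spermatids 13 fell with that block and 1 without it. Their summed level was 13172 to 41841 units in mutants and 99576 to 170805 units in wild types. Of 14 round spermatid genes 1 fell with the block, and their sums were 21595 to 36600 units in mutants and 33129 to 51255 units in wild types. The median log2 difference of the round spermatid list was -1.25, and that of the late list was -2.49. Of 16 spermatocyte genes 1 fell with the block, with sums of 91742 to 99219 units in mutants and 91620 to 101262 units in wild types. Of 12 spermatogonial genes 1 rose with the block. Of 11 Sertoli cell genes 0 were called, with sums of 42819 to 60783 units in mutants and 39529 to 49622 units in wild types. Counts of 0 or 1 in lists this short are a description and were not tested against the shares over all genes.

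The order of mice in the late and the round spermatid lists was that of the falling 1700-series genes at its ends. The median of the 34 genes, relative to the wild-type mean of each gene, was -2.82, -1.33, -1.73 and -1.39 in mutants 1 to 4, against -0.05, 0.41, 0.13 and -0.53 in wild types 1 to 4. The median of the late spermatid list was -4.42, -1.76, -1.87 and -1.50 in mutants, against 0.01, 0.39, 0.11 and -0.42 in wild types. The median of the round spermatid list was -2.495, -0.57, -0.966 and -0.575 in mutants, against 0.075, 0.28, 0.155 and -0.402 in wild types. In each of these lists, mutant 1 was lowest, wild type 2 highest and wild type 4 the lowest wild type. The median of the spermatocyte list stayed between -0.25 and 0.07 in every mouse. The epididymis markers summed to 288 to 72821 units in mutants and 516 to 62473 units in wild types, and split by replicate pair in both. The part of these cell types in the falls was not tested.

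**Figure D5:**
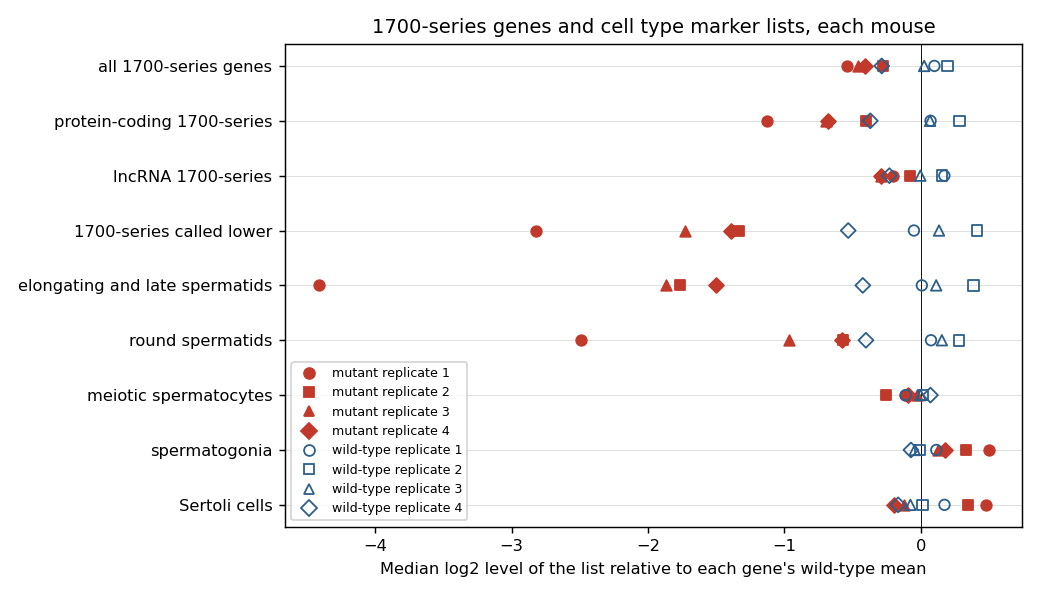
Median log2 level of each gene list relative to the wild-type mean of its genes (x axis), 1 point per mouse, with mutants filled, wild types open and symbols for replicates 1 to 4. The 1700-series genes called lower, the late spermatid markers and the round spermatid markers have mutant replicate 1 far to the left. Its values there are -2.82, -4.42 and -2.495, while spermatocyte markers stay near 0 in all mice.

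Of the 44 genes of the series below the filter, 6 fell with the replicate block when no filter was set, where 1.96% of all genes fell, and 0 rose. Without a block 2 of the 6 fell (0.198% of all genes did). 1700095A13Rik had 10.1, 2.65, 28.6 and 8.53 units in mutants, against 111, 160, 172 and 106 units in wild types. The groups did not overlap, and the limma adjusted p was 0.0137 with the block and 0.0229 without. 1700048M11Rik had 27.4, 8.29, 3.22 and 28.4 units in mutants, against 145, 174, 96.9 and 122 units in wild types (limma adjusted p = 0.0173 with the block and 0.0337 without). Mutant values this low may lie below background, which the deposited values do not record. The other 4 were 1700034G24Rik, 1700016P04Rik, 1700109K24Rik and 1700061I17Rik. The filter also kept 11 genes through their wild-type mean alone and 1 through its mutant mean alone.

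Several clone genes lie over other genes, and the arrays' own probes decide what is measured. Of the 156, 67 overlap another annotated gene and 42 overlap one that was measured. Among the 34 that fell, 7 overlap 8 measured genes, of which 0 were called with the block. Those neighbours differed by -0.59 (Guca1a, which encodes a guanylate cyclase activator, beside 1700001C19Rik) to 0.32 (Slc30a1, which encodes a zinc exporter, beside 1700034H15Rik). Of 22 genes with more than 1 kept probe set, 4 had a kept probe set of the other sign that was not itself called. These include 2 of the 34 genes that fell. The other probe set of 1700034H15Rik differed by 0.21, against -1.03 for the one used (limma adjusted p = 0.028 with the block and 0.246 without). That of 1700094D03Rik differed by 0.06, against -1.09 for the one used (limma adjusted p = 0.0307 with the block and 0.221 without). With the pairs of replicates as a block neither gene was called (limma adjusted p = 0.125 for 1700034H15Rik and 0.0731 for 1700094D03Rik).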

How the data were processed

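RNA of whole testis from 8 mice was measured on Affymetrix arrays. RNA was extracted with Trizol and columns and labelled with biotin, per the labels' protocols. GCOS made the deposited intensity values, per the submitters' processing notes, and they are linear. No version is given in the sources used here. Each array's deposited intensities average 500 once 2% of them are trimmed at each end. A common target of this kind leaves arrays free to differ in the spread of their values, and 8 arrays limit the precision. The authors' table holds no detection calls.

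Of 45101 probe sets, 64 controls were left out of the tests. Values were taken as log2(intensity + 16). Probe sets with a mean above the 40th percentile (27022) were kept, and the brightest probe set stood for a gene. Of 244 probe sets with a single 1700-series symbol 184 were kept. A further 13 probe sets with several symbols were left out. Different probe sets were not compared in level.

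Genotypes were compared with limma 3.58.1 in R 4.3.3 (lmFit, eBayes with trend, two-sided, Benjamini-Hochberg over all genes), which was tested on simulated data. Figures were drawn with matplotlib 3.10.9. Adjusted p-values in the text are from limma. P-values without a block measure the spread between these mice within a genotype. Those with a block measure the spread left once the block is taken out. In both, limma moderates that spread over all genes. Deviations of mice with equal replicate numbers correlated over all genes (r = 0.515 to 0.677 in the 4 pairs), so the numbers were taken as pairs from the data, since the labels name no shared litter. By this measure only 3 of 8 mice were closest to their own number. The correlation can also come from the split of replicates 1 and 2 from 3 and 4, so it does not settle the pairing by number. The fit without a block is the main one, and the replicate block and a block of replicates 1 and 2 against 3 and 4 are alternatives. Others changed the scaling, pseudocount, filter, probe set rule and trend, or left out mice.

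Named genes were those with the largest changes past the threshold without overlap, the 6 brightest, those with a named synonym (the gene table gives none a named symbol), and members of counts of 5 or fewer. Members and lists were chosen with earlier results of these data known. Gene classes come from a RefSeq table of GRCm38.p6. The files name no build, so no gene coordinates are given from them.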

Additional observations from a re-analysis of the deposited data

Results flagged for a closer look

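In 1700016H13Rik the mutant of replicate 1 lay apart from the other mutants, with 74.7 units against 821, 629 and 824 units, a gap of 0.882 of the range of the 4 mutants on the log2 scale. In 1700019D03Rik the same mouse lay apart, with 320 units against 1759, 1537 and 2038 units, a gap of 0.846. Both are above Dixon's critical value at the 95% level for 4 samples. They are 2 of 58 groups examined, and chance alone marks about 1 in 20 groups. Both genes are among those that fell with the replicate block.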

How the results depend on the processing

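The number of 1700-series genes lower in mutants was 4 in the main fit. It was 34 with the replicate block, 19 with the block of replicates 1 and 2 against 3 and 4, 41 with array weights and 7 with a pseudocount of 64. Without a filter on low values, then of 200 genes, it was 34 with the replicate block and 18 with the block of pairs. Of those, 6 and 3 lay below the filter, so some of the 156 genes lost their call. Among these was 1700019D03Rik (limma adjusted p = 0.056 with the replicate block and no filter). The number of genes lower was 44 with the block of replicate pairs and without mutant 1, and 0 within replicates 1 and 2 alone. Leaving out 1 mouse gave 0 to 17, and leaving out a replicate number in the fit with the replicate block gave 0, 1, 42 or 50. The number higher was 0 in the main fit. It was 1 with the replicate block, with the block of pairs (each also without the filter) and with array weights, and 2 with the block of pairs and without mutant 1. Leaving out 1 mouse or number gave 0 to 1. The cause of these shifts was not tested, apart from the fewer mice in those that leave some out. The fits within 1 pair, the one without mutant 1 and those joining a block with no filter were chosen after seeing the data. The median over the series lay between -0.57 and -0.30 in every alternative (200 genes without a filter, 118 with the stricter one, 156 otherwise). The count of genes that differ between replicate pairs was 44, and 44 to 63 under 5 alternatives, and the count for the difference between pairs was 0 in all. For the 25 named genes, 697 alternative values held 0 reversals of a called direction, with 35 that lost and 84 that gained a call. Without detection calls, values of dim probe sets have an unknown distance from background.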
